A study of Mus musculus with 2 samples.

Results

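The genes described here are 37 lysosomal genes, out of 32285 genes in the matrices, that encode the acid hydrolases of the lysosome, the proteins that present lipids to them, and proteins of the lysosomal membrane. They were chosen by name from a list made with earlier results of these data known. All 37 had UMIs (unique molecular identifiers, each counted as 1 captured transcript) in both libraries. They were measured by droplet-based single-cell RNA sequencing in 2 libraries of brain cells. The E4 library came from female mice homozygous for the human E4 allele of APOE, and the E3 library from female mice homozygous for the human E3 allele. In both lines the human sequence replaces mouse Apoe, so mouse apolipoprotein E is absent from both groups. The mice were 11 to 12 months old, and the right hemispheres of 3 mice per genotype, without brainstem and cerebellum, were pooled, digested with warmed enzymes and loaded as 1 library. With 1 library per genotype there are no replicates: no test of genotype was possible, no p-value is given, and a difference between the libraries cannot be told apart from a difference between pools, dissociations or runs.

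Lysosomal hydrolases are made in the endoplasmic reticulum, receive a mannose 6-phosphate tag in the Golgi, and are carried by sorting receptors to an acidic compartment where they break down proteins, glycans, lipids and nucleic acids. The membrane proteins shield the limiting membrane, pump protons and export what the hydrolases release, and the transcription factor TFEB and its relatives switch on many of these genes by binding an extended E-box in their promoters. In the brain, microglia are the professional phagocytes and are known for abundant cathepsins, and inherited loss of many of these genes causes lysosomal storage disease with neurodegeneration.

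The libraries held 13802 (E4) and 11485 (E3) barcodes with 71625170 and 56415229 UMIs, of which 13528 and 11288 cells were kept, with medians of 4085 and 3784 UMIs per cell. The libraries shared 46 barcodes. Cells were clustered without the 37 genes, and 21 of 25 clusters were named from marker genes, which gave 11 classes called here microglia-like, macrophage-like and so on. The microglia-like clusters each carried 9 of 9 microglia markers, such as Tmem119 and P2ry12, and the macrophage-like cluster 9 of 9 macrophage markers, such as Mrc1 and Pf4. No cluster was named neuron-like, and the sample labels name non-neuronal brain cells. Levels are UMIs of a gene per 1000000 UMIs of the class (CPM) with exact 95% Poisson intervals, and all intervals cover counting error only. The library kit captures transcript ends, so levels are set between genes without division by length.

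The promoters are shown first because the E-box is the feature of sequence that lysosomal genes are known for. A window of 300 bases, reaching from 250 bases before to 50 bases after the start site, was given by RefSeq (GRCm38.p6) for 33 of the 37 genes, and Ctsb, Ctsh, Npc1 and Asah1 had no window. The 33 genes had 37 windows, since Lgmn, Ctsa, Psap and Cln3 had more than 1, and a gene was counted where any window held the letters. The letters CACGTG, read on both strands, were in a window of 13 of the 33 genes (39.4%), against 14 of 69 other lysosomal genes (20.3%) and 2187 of 27025 genes in all (8.09%). For Lgmn, Ctsa and Cln3 only 1 of the windows held them. The longer form GTCACGTG or CACGTGAC, which contains the E-box, was in 10 of 33 (30.3%), against 10 of 69 (14.5%) and 689 of 27025 (2.55%). By role, 3 of 6 cysteine proteases, 2 of 3 other proteases, 5 of 9 glycosidases and the sulphatase, 3 of 7 membrane proteins, 0 of 4 lipid hydrolases and 0 of 4 lipid carriers held the E-box. A match of letters is a description and not a bound site. The 150 bases before the start site are given for 4 genes, in lower case with each E-box in capitals together with the added bases of the longer form. Ctsd and Ctss were the most abundant of the 37 genes in microglia-like cells, one with and one without an E-box, and Lamp1 and Mcoln1 are membrane proteins whose level was highest in oligodendrocyte-like cells, for Mcoln1 by less than the counting error. Their positions are chr7:142387828-142387977 (minus strand) for Ctsd, chr3:95526636-95526785 (plus) for Ctss, chr8:13159011-13159160 (plus) for Lamp1 and chr8:3500369-3500518 (plus) for Mcoln1. The start sites are those of RefSeq. In the annotation GENCODE vM21 the Ctsd and Mcoln1 genes begin further upstream, at 142388038 and 3500457. By that annotation the Ctsd stretch lies within the gene and the Mcoln1 stretch overlaps it.
Ctsd: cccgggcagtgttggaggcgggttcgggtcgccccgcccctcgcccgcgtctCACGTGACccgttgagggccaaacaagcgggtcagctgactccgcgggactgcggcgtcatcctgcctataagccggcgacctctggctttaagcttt
Ctss: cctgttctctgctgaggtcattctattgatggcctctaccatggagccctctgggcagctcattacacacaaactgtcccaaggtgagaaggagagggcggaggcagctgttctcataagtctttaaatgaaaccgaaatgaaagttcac
Lamp1: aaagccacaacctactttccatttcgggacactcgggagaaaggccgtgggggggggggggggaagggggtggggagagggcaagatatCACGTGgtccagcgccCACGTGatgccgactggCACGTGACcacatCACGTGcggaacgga
Mcoln1: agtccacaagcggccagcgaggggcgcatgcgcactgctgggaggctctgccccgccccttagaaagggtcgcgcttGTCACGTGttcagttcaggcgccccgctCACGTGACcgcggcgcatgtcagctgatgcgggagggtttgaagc
The E-boxes of Lamp1 began 61, 45, 28 and 15 bases before the start site, those of Mcoln1 71 and 45 bases before it, and those of Ctsd 245 (outside the stretch shown) and 98 bases before it.

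The 37 genes together made up 1.15% of all UMIs in the E4 library and 1.02% in the E3 library, and microglia-like cells held the highest share of any class. Their lysosomal sum, the summed level of the 37 genes, was 28991 CPM (28908–29073) in E4 and 28013 CPM (27916–28109) in E3. Macrophage-like cells followed with 20828 CPM (20458–21204) in E4 and 19610.1 CPM (19227–19999) in E3. All other classes lay far lower, with choroid plexus-like cells at 6555 and 6074 CPM in E4 and E3 and erythroid-like cells at 1920 and 1246 CPM. Microglia-like cells exceeded the other 9 classes, macrophage-like cells left aside, by 5.76-fold (5.73–5.78) in E4 and 5.97-fold (5.94–6.0) in E3, and astrocyte-like cells alone by 5.38-fold and 5.39-fold. Between these ends the order was less firm. Mural-like cells (6080 CPM, 5888–6277) and meningeal-like cells (5797 CPM, 5686–5910) overlapped in E4, as did astrocyte-like cells (5386 CPM, 5348–5425) and oligodendrocyte-like cells (5309 CPM, 5255–5362). In E3 the sum was 5493 CPM (5216–5781) in mural-like, 5200 CPM (5160–5241) in astrocyte-like and 5086 CPM (4986–5188) in meningeal-like cells, which overlap their neighbours in that order.

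**Figure D1:**
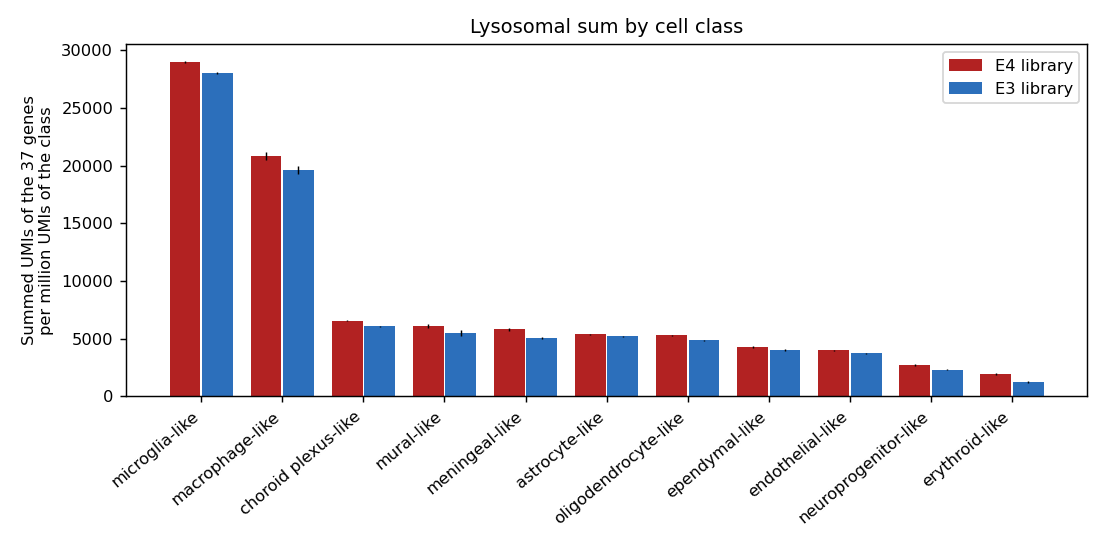
Summed level of the 37 lysosomal genes in CPM (vertical axis) in each of 11 cell classes (horizontal axis), with the E4 library in red and the E3 library in blue and bars for exact 95% Poisson intervals. Microglia-like cells stood at 28991 (E4) and 28013 (E3), macrophage-like cells at 20828 and 19610.1, and every other class at or under 6555 and 6074.

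Transcripts of microglia were also found in the other classes. Free RNA, doublets and microglia left within a class would each bring them in, and these were not told apart. Their size was read from 9 microglia markers, whose summed level in astrocyte-like cells was 0.955% (E4) and 0.902% (E3) of that in microglia-like cells, against 4.74% and 3.29% in oligodendrocyte-like, 5.35% and 4.84% in endothelial-like and 9.91% and 7.12% in mural-like cells. In astrocyte-like cells 34 of the 37 genes exceeded 3 times this ratio in both libraries, whereas Ctss (0.995% of its microglial level in E4 and 0.799% in E3) and Cd68 (1.02% and 0.840%) stood near the ratio itself and are not read as expressed there. A sub-cluster of 52 (E4) and 28 (E3) cells led by microglial genes such as Tyrobp and C1qa was among the astrocyte-like cells, since none of its leading genes was on the marker lists. Without it, an alternative chosen after the data were seen, the marker ratio was 0.817% and 0.790%, Ctss stood at 0.651% and 0.645% and Cd68 at 0.758% and 0.775%, and the number of genes above 3 times the ratio was again 34 in each library. Ctss, at 59.0 CPM in E4 and 49.5 CPM in E3, still had a UMI in 14.6% and 15% of astrocyte-like cells (median depths 4021 and 4076 UMIs), against 99.6% and 99.8% of microglia-like cells (median depths 4284 and 3668.5 UMIs). The number of genes above 3 times the ratio was 34 in choroid plexus-like, 33 in meningeal-like, 25 in endothelial-like, 24 in oligodendrocyte-like and 14 in mural-like cells, and 1 in erythroid-like cells. The cut-off differs by class, since the marker ratio does, so these counts do not compare lysosomal expression between classes. The share of all genes above the cut-off was not computed for any class.

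Cysteine proteases and the aspartic protease Ctsd dominated the microglial sum. The 8 cysteine proteases together took 46.9% of it in E4 and 48.5% in E3, the 3 other proteases 25.3% and 24.1%, lipid carriers with progranulin 11.6% and 11.1%, membrane proteins 8.64% and 8.72%, the 9 genes of the glycosidases and the sulphatase 5.01% and 4.99%, and the 5 lipid hydrolases 2.57% and 2.50%. Other classes were composed differently. In astrocyte-like cells membrane proteins were the main group, with 34.1% of the sum in E4 and 35.5% in E3, and cysteine proteases took 21.2% and 20.8%. Membrane proteins likewise made up 35.8% and 39.7% in oligodendrocyte-like cells and 27.0% and 28.8% in choroid plexus-like cells. Macrophage-like cells kept 45.1% and 44.7% in cysteine proteases, but 11.8% and 10.3% in the other proteases and 15.2% and 14.8% in membrane proteins.

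Among single genes, Ctsd, which encodes cathepsin D (chromosome 7, 142375911 to 142388038, minus strand, in the mm10 annotation GENCODE vM21), reached 6530.2 CPM (6491–6569) in E4 and 6014 CPM (5970–6059) in E3 microglia-like cells. Ctss (chromosome 3, 95526786 to 95556403, plus strand), encoding cathepsin S, a protease that stays active at neutral pH and trims the invariant chain of class II molecules, reached 5933 CPM in E4 and 6193 CPM in E3. Cathepsin D ranked first in E4 and cathepsin S first in E3, and Ctsd had a UMI in 99.7% of microglia-like cells of each library. Lgmn, the asparaginyl endopeptidase legumain that cleaves and activates several cathepsins, followed with 2338 CPM in E4 and 2145 CPM in E3. The cysteine cathepsins Ctsz, Ctsb and Ctsl lay at 1455, 1447 and 1237 CPM in E4 and at 1416, 1372 and 1273 CPM in E3. Psap, the precursor of the saposins that help hydrolases reach sphingolipids, had 1363 CPM in E4 and 1212 CPM in E3. Grn, encoding progranulin, a lysosomal cofactor whose loss causes frontotemporal dementia in people, had 999 and 940.2 CPM. Lamp1, a main glycoprotein of the lysosomal membrane, had 751 and 709 CPM, and Npc2, the soluble protein that hands cholesterol to NPC1, 730 and 725 CPM. These 10 genes supplied 78.6% of the sum in E4 and 78.5% in E3, and they were the same 10 in both libraries. At the low end, 10 genes stayed under 100 CPM in both libraries. The lowest were Gla, the alpha-galactosidase deficient in Fabry disease, at 3.12 and 1.81 CPM, the heparan sulphatase Sgsh at 7.27 and 9.39 CPM, and the calcium channel Mcoln1 at 15.9 and 14.3 CPM.

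**Figure D2:**
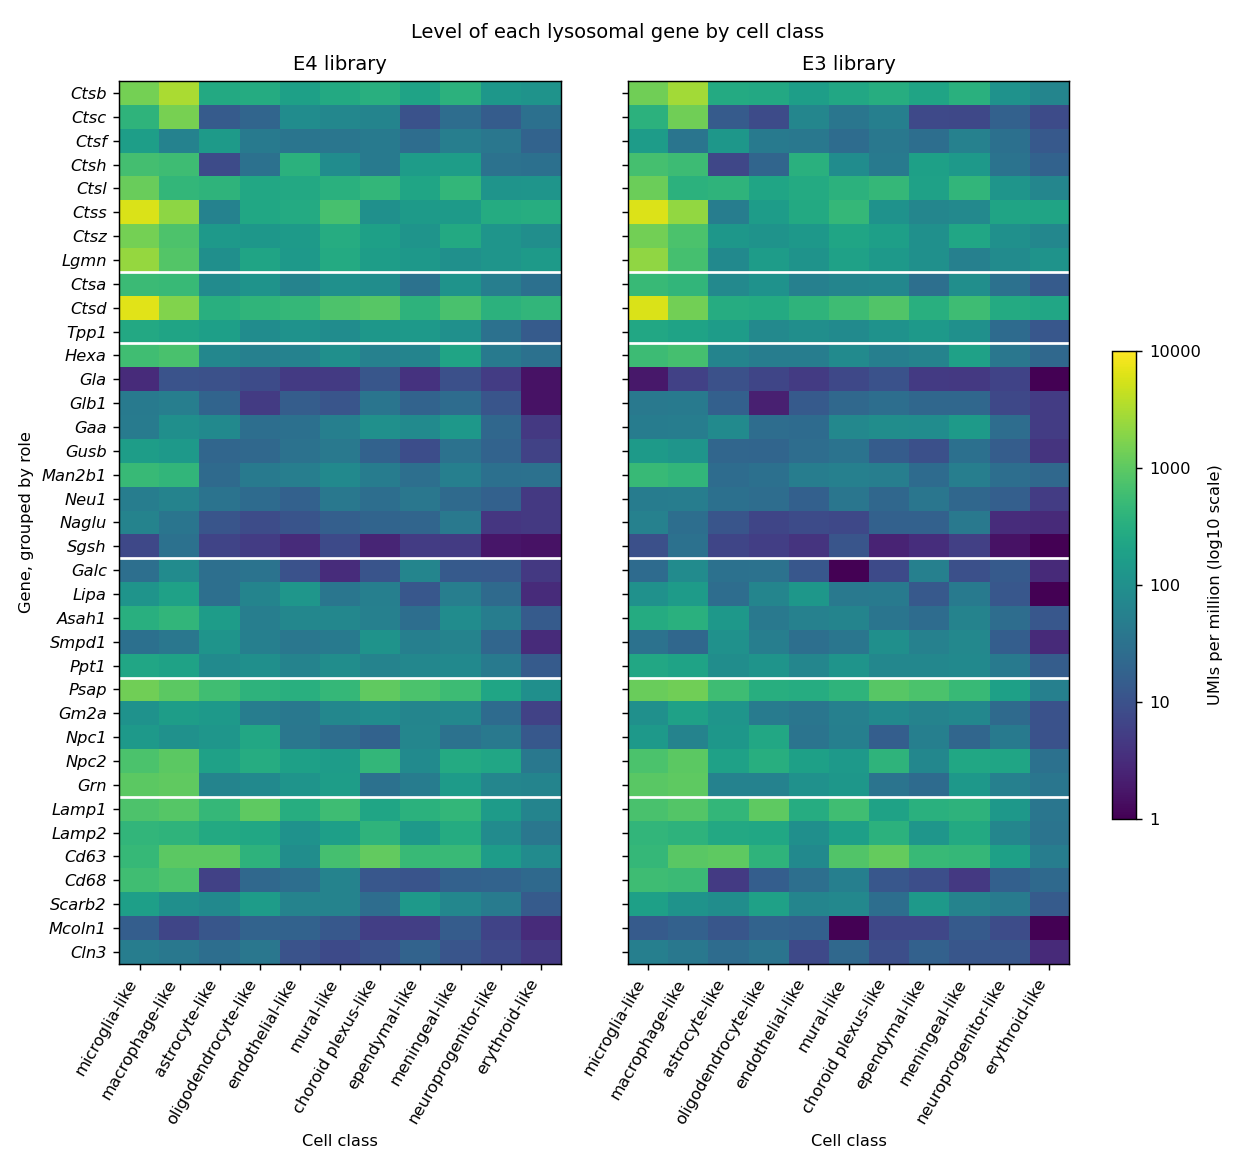
Level of each of the 37 genes (down the page, grouped by role between white lines: cysteine proteases, other proteases, glycosidases and a sulphatase, lipid hydrolases, lipid carriers with progranulin, membrane proteins) in each cell class (across), for the E4 library on the left and the E3 library on the right. Colour gives CPM on a log10 scale, with values under 1 drawn as 1, and the brightest cells are Ctsd (6530.2 and 6014) and Ctss (5933 and 6193) in microglia-like cells.

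Against all other named classes together, 25 of the 37 genes were at least 2-fold higher in microglia-like cells in both libraries, where 13.2% of the 16110 genes with at least 50 UMIs were. The median fold over the 37 genes was 2.46 in E4 and 2.73 in E3. All 8 cysteine proteases and all 3 other proteases passed, with Ctss at 30.3-fold in E4 and 39.2-fold in E3, Lgmn at 15.4 and 18.3, Ctsd at 13 and 14.4, Ctsz at 9.08 and 9.70, and Tpp1, a tripeptidyl peptidase, nearest to the threshold at 2.03 and 2.18. Among the membrane proteins 3 of 7 passed, led by Cd68, the macrosialin used as a marker of phagocytes, at 23.1-fold and 28.7-fold. Scarb2, the receptor that carries glucocerebrosidase to lysosomes, passed at 2.22 and 2.03, whereas Lamp1 (1.60 and 1.58) and Lamp2 (1.85 and 1.97) did not. Of the glycosidases and the sulphatase 5 of 9 passed, among them Man2b1, an alpha-mannosidase, at 11.3-fold and 12.1-fold, and Hexa, the alpha subunit of hexosaminidase, at 7.68-fold and 7.79-fold. Of the lipid hydrolases 3 of 5 passed, with the acid ceramidase Asah1 at 3.54-fold and 3.71-fold, and of the lipid carriers and progranulin 3 of 5, with Grn at 11.1-fold and 12.1-fold. The 12 genes that did not pass included 4 that were lower in microglia-like cells in both libraries: Gla (0.387 and 0.239), the sphingomyelinase Smpd1 (0.392 and 0.462), the glycogen-degrading glucosidase Gaa (0.727 and 0.739) and the tetraspanin Cd63 (0.780 and 0.715).

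The same comparison was made for 91 further lysosomal genes, of which 23 of the 87 that could be compared passed. Among 25 other hydrolases 13 passed. Of the subunits of the proton pump 2 of 18 passed (Atp6v0a2 and Atp6v1c1), of the other membrane proteins 4 of 21 (Laptm5 at 25.5-fold and 34.6-fold, Cd164, Ctns and Lamtor4), and of the enzyme sorting genes 0 of 13. The inhibitor of cysteine cathepsins cystatin C, encoded by Cst3, stood at 55719 CPM in E4 and 60869.9 CPM in E3 microglia-like cells, above the summed 37 genes. Of the transcription factors Tfe3 (6.48-fold and 6.61-fold) and Mitf (2.54-fold and 2.53-fold) passed, and Tfeb (1.32-fold and 1.41-fold) did not. Among the 37 genes, the E-box stood in 8 of the 22 genes with a window that passed and in 5 of the 11 that did not.

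By the class of highest level, 15 of the 37 genes peaked in microglia-like and 12 in macrophage-like cells in both libraries, 7 peaked in another class, and 3 (Psap, Cd68 and Scarb2) changed class between the libraries. These counts take no account of counting error, and some gaps were small. They were not made for all genes, so no share over all genes stands beside them. Neu1 in E3, for example, had 49.2 CPM in macrophage-like and 47.5 CPM in microglia-like cells. Npc1, the membrane protein that exports cholesterol from lysosomes, was highest in oligodendrocyte-like cells, the myelin-forming cells, at 253 CPM in E4 and 251 CPM in E3, against 147 and 141 CPM in microglia-like cells. Lamp1 also peaked there at 1035 and 1029 CPM, against 882 and 865 CPM in macrophage-like cells, the next class. Mcoln1 was nominally highest there at 18.8 and 18.5 CPM, against 17.9 and 17.7 CPM in the next class, a gap smaller than the counting error. Cd63 peaked in choroid plexus-like cells (1093 CPM in E4 and 1126 CPM in E3), with astrocyte-like cells at 981 and 1011 CPM, and in each of these classes it exceeded the 483 and 465 CPM of microglia-like cells. Gla was nominally highest in choroid plexus-like cells at 11.9 and 10.3 CPM. Gaa was highest in meningeal-like cells, at 136 CPM in E4 and 150.4 CPM in E3, against 103 and 90.8 CPM in choroid plexus-like cells. Smpd1 was nominally highest in astrocyte-like cells at 116 and 104 CPM, next to choroid plexus-like cells at 115 and 97.3 CPM. The aminopeptidase cathepsin H, encoded by Ctsh, showed a further pattern: 629 CPM in E4 and 655 CPM in E3 microglia-like cells, 359.9 and 348 CPM in endothelial-like cells, but 8.28 and 7.0 CPM in astrocyte-like cells, 1.32% and 1.07% of its microglial level and thus close to the ratio of the microglia markers.

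Macrophage-like cells, which carry markers of the macrophages of the brain's borders, were then set against microglia-like cells, the resident phagocytes of the parenchyma, for the 27 genes with a mean of at least 100 CPM. Their lysosomal sum was 0.718 (0.706–0.732) of the microglial one in E4 and 0.700 (0.686–0.714) in E3, yet single genes went both ways. At least 2-fold higher in macrophage-like cells in both libraries were 3 genes, where 9.33% of all genes compared were, and at least 2-fold lower were 5 genes, where 11.0% were. Ctsc, encoding cathepsin C, which activates serine proteases of immune cells, had 1506 CPM in E4 and 1365 CPM in E3 macrophage-like cells, against 399.8 and 377 CPM in microglia-like cells, a ratio of 3.77 (3.51–4.04) and 3.62 (3.33–3.92). Ctsb, encoding cathepsin B, had 3129 and 2785 CPM, against 1447 and 1372 CPM, a ratio of 2.16 (2.06–2.27) and 2.03 (1.92–2.14). Cd63 had 991 and 957 CPM, against 483 and 465 CPM, a ratio of 2.05 (1.88–2.23) and 2.06 (1.87–2.26). Next in size, without passing, were Gm2a, the activator protein for ganglioside breakdown (1.49 and 1.93), and the acid lipase Lipa (1.62 and 1.5). The 5 lower genes were all proteases, and they include the most abundant genes of microglia-like cells. Ctsd had 1752 CPM in E4 and 1390.3 CPM in E3 macrophage-like cells, against 6530.2 and 6014 CPM in microglia-like cells, a ratio of 0.268 (0.252–0.285) and 0.231 (0.214–0.249). Ctss had 2089 and 2261 CPM, against 5933 and 6193 CPM, a ratio of 0.352 and 0.365. Lgmn (0.362 and 0.312), Ctsl (0.361 and 0.294) and Ctsf (0.343 and 0.219) stood at similar ratios. Among genes under that level, and chosen after their values were seen, Sgsh had 31.1 CPM in E4 and 31.5 CPM in E3 macrophage-like cells, against 7.27 and 9.39 CPM, and the galactosylceramidase Galc 84.7 and 84.7 CPM, against 29.4 and 24.7 CPM. Psap (0.728 and 1.14) and Cd68 (1.251 and 0.916) lay on opposite sides of equality in the libraries. Microglia markers in macrophage-like cells reached 17.2% (E4) and 16.5% (E3) of their level in microglia-like cells, and the part of this in the ratios was not tested. Without Ctsd and Ctss the sums were close to equal, with microglia-like cells at 0.973 (E4) and 0.990 (E3) of macrophage-like cells. No interval was computed for these 2 ratios.

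**Figure D3:**
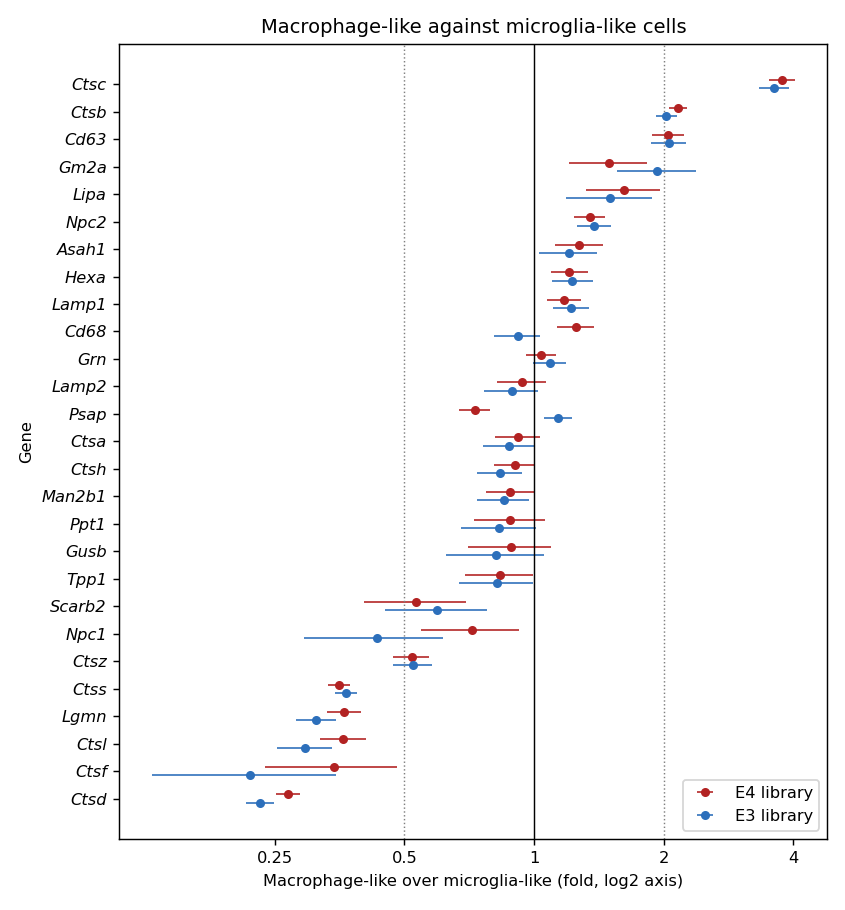
Ratio of the level in macrophage-like cells to that in microglia-like cells (horizontal, log2 axis with dotted lines at 0.5 and 2) for the 27 lysosomal genes with a mean of at least 100 CPM (down the page, ordered by ratio), with E4 in red, E3 in blue and bars for exact 95% intervals. Ctsc (3.77 and 3.62) is at the top and Ctsd (0.268 and 0.231) at the bottom, and 10 genes lie above 1 and 15 below 1 in both libraries. The median ratio of the 27 genes was 0.902 (E4) and 0.873 (E3), against 0.989 and 0.930 over all genes compared.

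Among microglia-like cells the lysosomal sum was next compared between states. A sub-cluster led by the immediate-early genes Egr1, Ier2, Atf3 and Fos (741 cells in E4 and 431 in E3) had 27750.1 and 27076 CPM, against 29647 and 28453 CPM in the 4 sub-clusters without a state (2293 and 1581 cells), a ratio of 0.936 (0.929–0.943) and 0.952 (0.942–0.961). The median ratio over all genes compared was 0.931 and 0.940, close to the ratio of the sum. The 4 sub-clusters without a state differed too, from 27901 to 31666 CPM in E4 and from 27514 to 31249 CPM in E3. Left out of them were sub-clusters without state markers that were led by genes of another class. These had 27959 (E4) and 27513 (E3) CPM where led by Mobp and Mbp, and 27899 and 25552 CPM where led by Slc4a4 and Slc1a2. For differences between states and between genotypes the threshold was a log2 ratio of 0.32 in either direction. No gene of the 27 compared passed it in both libraries, where 5.28% of all genes were higher and 1.82% lower. The largest ratios with 1 direction were those of Man2b1 (0.828 and 0.797), Gm2a (0.889 and 0.786), Tpp1 (0.831 and 0.858), Asah1 (0.898 and 0.833) and Scarb2 (0.874 and 0.873). With called doublets left out, the sub-cluster with most immediate-early and chemokine markers was another one, led by Ccl4 and Ccl3, and the ratio was then 1.14 and 1.11. A sub-cluster led by mitochondrial transcripts, with medians of 1138 and 1055.5 UMIs per cell, had 37628 CPM in E4 (69 cells) and 40780.2 CPM in E3 (166 cells).

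No sub-cluster carried at least 3 markers of disease-associated microglia, the phagocytic state found around amyloid plaques in mouse models, so cells were split by their own UMIs of 9 such genes, a split chosen after the data were seen. The lysosomal sum was higher in each step of this scale in both libraries. In E4 it was 28381 CPM in cells with 0 such UMIs (3158 cells), 30726 CPM with 1 (392 cells), 32236 CPM with 2 to 3 (108 cells), 38154 CPM with 4 to 7 (27 cells) and 43524 CPM with 8 or more (10 cells). In E3 it was 27593 CPM (2719 cells), 28501 CPM (281 cells), 32295 CPM (66 cells), 38419 CPM (20 cells) and 41525 CPM (8 cells). Depth moved along with it, since median UMIs per cell were 6718.5 (E4) and 8334.5 (E3) in the highest step, against 4198.5 and 3608 in the lowest, while homeostatic microglia markers were at 8515 and 7934 CPM, against 17335 and 16932 CPM, and the part of either in the sum was not tested. Within cells of 4000 to 8000 UMIs, cells with at least 4 such UMIs had 38499 CPM in E4 (28 cells) and 42257 CPM in E3 (16 cells), against 28612 and 27589 CPM in cells with none. Median depth still differed within this window, at 5921 (E4) and 6032 (E3) UMIs against 4831 and 4598.5 UMIs in cells with none. Most UMIs of the 9 genes came from Csf1 (309 in E4 and 211 in E3), Lpl (192 and 194) and Cst7 (184 and 100), and Gpnmb had 3 and 0. An equal split by 9 interferon genes gave a narrower range, 28874 to 30912 CPM in E4 and 27865 to 29569 CPM in E3.

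**Figure D4:**
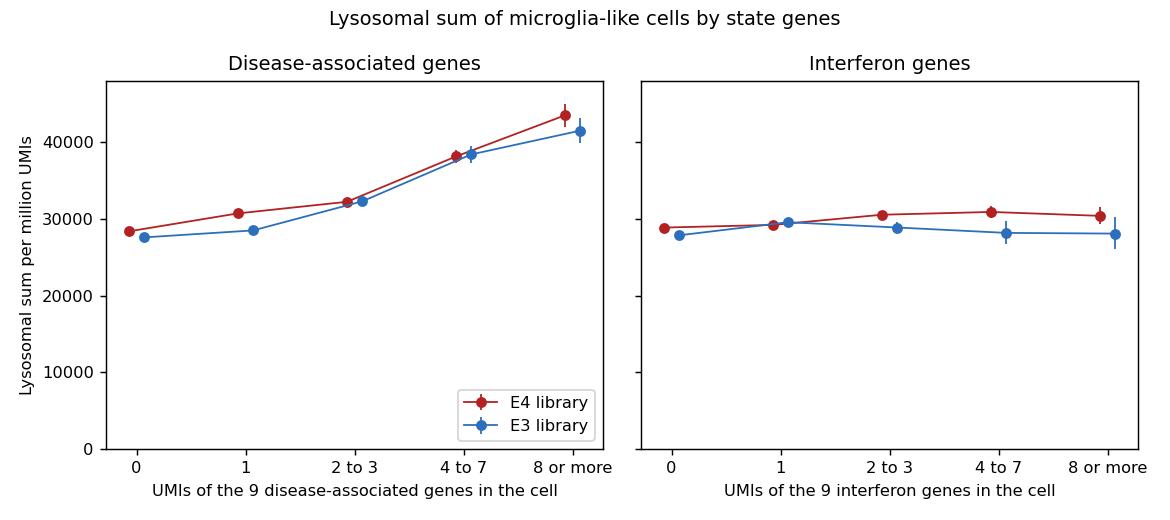
Lysosomal sum in CPM (vertical axis, from 0) of microglia-like cells by the number of UMIs a cell held of 9 disease-associated genes (left) or 9 interferon genes (right), with E4 in red, E3 in blue and bars for exact 95% Poisson intervals. On the left the sum reaches 43524 (E4) and 41525 (E3) in cells with 8 or more such UMIs, against 28381 and 27593 in cells with 0, and on the right it stays between 27865 and 30912.

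Cells with at least 4 UMIs of the disease-associated genes were rare, 37 in E4 and 28 in E3, and their lysosomal sum was 39542.5 and 39472 CPM, a ratio to cells with none of 1.39 (1.37–1.42) and 1.43 (1.40–1.46). Of the 27 genes compared 12 were past the threshold and higher in both libraries, where 14.1% of all genes were, and 1 was lower, where 15.4% were. The median ratio of the 27 genes was 1.16 in E4 and 1.28 in E3, against 1.01 and 0.966 over all genes. Cd63 was foremost, with 1624 CPM in E4 and 1743 CPM in E3 against 435 and 419.8 CPM in cells with none, a ratio of 3.73 (3.39–4.10) and 4.15 (3.70–4.65). Ctsb had 3627 and 3927 CPM, against 1341 and 1281 CPM, a ratio of 2.70 and 3.07. Ctsz, encoding the carboxypeptidase cathepsin Z, had 3032 and 3211 CPM, against 1390.4 and 1340.1 CPM, a ratio of 2.18 and 2.40. Cd68 had 1159 and 1044 CPM, against 574 and 559 CPM, a ratio of 2.02 and 1.87. Ctsd stood at 1.63 and 1.57, and Ctsa, Gusb, Lipa, Psap, Npc2, Grn and Lamp1 between 1.251 and 1.72. The lower gene was Ctsf, encoding cathepsin F, with 102 and 96.8 CPM, against 175 and 165 CPM, a ratio of 0.582 (0.389–0.838) and 0.588 (0.348–0.933). Not all abundant proteases passed, since Ctss stood at 0.928 and 0.981 and Lgmn at 0.889 and 0.984.

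Between the genotypes the lysosomal sum was slightly higher in the E4 library in each of the 6 classes with at least 200 cells per library. In microglia-like cells the log2 ratio of E4 to E3 was 0.05 (0.04–0.06), a fold of 1.03, and in astrocyte-like cells 0.05 (0.04–0.07), a fold of 1.04. It was 0.11 (0.09–0.13) in choroid plexus-like, 0.10 (0.08–0.13) in endothelial-like, 0.13 (0.11–0.15) in oligodendrocyte-like and 0.23 (0.17–0.28) in neuroprogenitor-like cells. In each class the median log2 ratio of the lysosomal genes lay above that of all genes with at least 50 UMIs. It was 0.08 against 0.05 in microglia-like, 0.08 against 0.01 in astrocyte-like, 0.13 against 0.06 in oligodendrocyte-like, 0.13 against 0.07 in endothelial-like, 0.17 against 0.04 in choroid plexus-like and 0.20 against 0.06 in neuroprogenitor-like cells.

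In the classes with most cells hardly any of the 37 genes passed the threshold. In microglia-like cells 1 was higher in E4, where 8.15% of all genes were, and 1 was lower, where 4.71% were. The higher one was Gla, with 51 UMIs in E4 and 21 in E3 (3.12 and 1.81 CPM, log2 ratio 0.78, 0.03–1.59), and the lower one Sgsh, with 119 and 109 UMIs and an interval that includes 0 (log2 ratio -0.37, -0.76–0.02). The abundant genes differed less: Psap had a log2 ratio of 0.17, Ctsd and Lgmn 0.12 each, Ctss -0.06 and Asah1 0.25. In astrocyte-like cells 0 of 37 genes were higher (7.13% of all genes) and 0 lower (5.73%), also without the sub-cluster led by microglial genes, but with cells thinned to 1000 UMIs 2 were higher and 6 lower. In endothelial-like cells 4 were higher (13.4% of all genes) and 1 lower (4.58%), with Ctsc at 89.1 CPM in E4 and 68.3 CPM in E3 (0.38, 0.21–0.56) and Smpd1 at 38.2 and 28.9 CPM (0.40, 0.13–0.67) having intervals clear of 0. In choroid plexus-like cells 5 of 36 were higher (12.5% of all genes) and 1 lower (8.6%), and the intervals were clear for the serine carboxypeptidase Ctsa (90.3 and 70.9 CPM, 0.35), the beta-galactosidase Glb1 (36.5 and 27.8 CPM, 0.39) and Asah1 (55.4 and 35.8 CPM, 0.63).

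Oligodendrocyte-like and neuroprogenitor-like cells had most genes past the threshold. They also had the highest shares of all genes higher in E4. In oligodendrocyte-like cells 8 of 36 were higher in E4 (15.9% of all genes) and 0 lower (5.26%). Ctsc had 19.9 CPM in E4 and 8.21 CPM in E3 (log2 ratio 1.28, 0.80–1.78), Ctsh 30.9 and 20 CPM (0.63), Ctss 238 and 160 CPM (0.57), Ctsd 417 and 282 CPM (0.56), Cd68 22.3 and 15.7 CPM (0.50), Man2b1 42.4 and 29.9 CPM (0.50), Grn 80.6 and 59.0 CPM (0.45) and Lgmn 216 and 161 CPM (0.42). All 8 of these genes were among the 25 that were at least 2-fold higher in microglia-like cells. Each lay under 3 times the ratio of the microglia markers in both libraries. Ctss and Cd68 lay under the ratio itself and Ctsc and Ctsh close to it, so these are not read as expressed there. In neuroprogenitor-like cells 8 of 31 were higher (20.1% of all genes) and 0 lower (10.0%). With intervals clear of 0 these were Lipa (24.5 CPM in E4 and 12.2 CPM in E3, 1.01), Asah1 (48.9 and 27.0 CPM, 0.86), Ctsa (51.5 and 31.3 CPM, 0.72), Lgmn (122 and 85.8 CPM, 0.51), Ctss (293 and 217 CPM, 0.43) and Ctsd (379 and 282 CPM, 0.42). Of these only Lipa lay above 3 times the marker ratio in both libraries. Ctss lay under the ratio itself and is not read as expressed in neuroprogenitor-like cells.

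**Figure D5:**
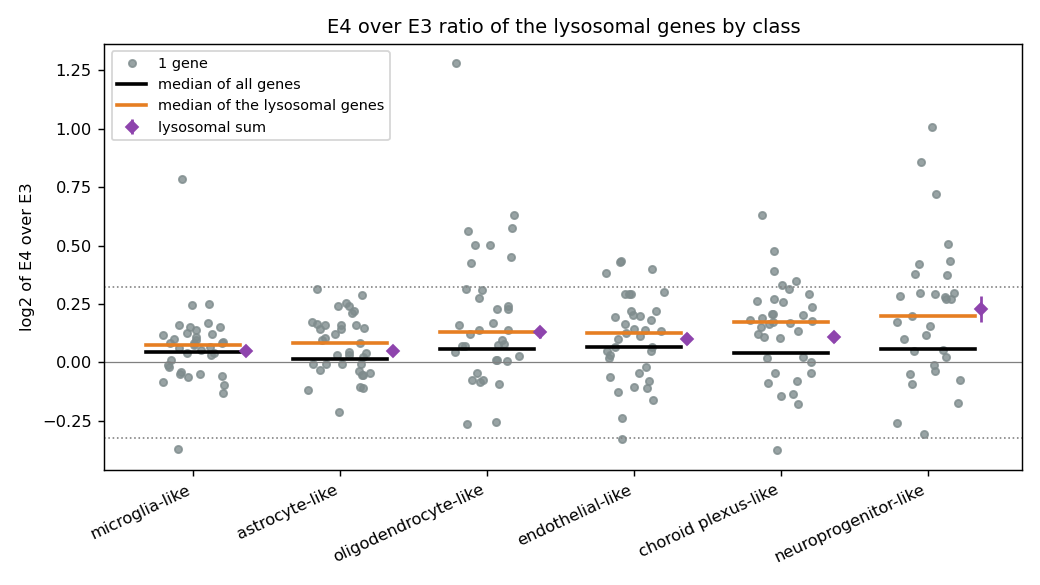
log2 ratio of the E4 to the E3 level (vertical axis) of each lysosomal gene (grey points) in the 6 classes with at least 200 cells per library (horizontal axis), with the median of the lysosomal genes in orange, the median of all genes in black, the lysosomal sum as a purple diamond with its exact 95% interval, and dotted lines at the threshold of 0.32 in either direction. The sum lies between 0.05 in microglia-like and 0.23 in neuroprogenitor-like cells. The highest point is Ctsc at 1.28 in oligodendrocyte-like cells, where it is not read as expressed.

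Transcripts of microglia moved with these ratios. Of the 9 microglia markers, 8 were past the threshold and higher in E4 in oligodendrocyte-like cells (median log2 ratio 0.62) and 7 in neuroprogenitor-like cells (0.56), against 4 in endothelial-like, 3 in choroid plexus-like, 2 in astrocyte-like and 0 in microglia-like cells (0.26, 0.24, 0.21 and 0.02). Genes induced by dissociation moved too, with 15 of 16 higher in E4 in oligodendrocyte-like cells (0.89), 10 of 12 in neuroprogenitor-like cells (1.06), 9 of 16 in microglia-like cells (0.39, with 1 lower), 9 of 13 in choroid plexus-like cells (0.37), 5 of 16 in endothelial-like cells (0.17) and 4 of 14 in astrocyte-like cells (0.16), and their part in the ratios was not tested. In an alternative chosen after the data were seen, cells with any UMI of a microglia marker were left out, which removed 54.4% (E4) and 50.3% (E3) of oligodendrocyte-like and 48.7% and 41.9% of neuroprogenitor-like cells. The log2 ratio of the sum was then -0.02 in oligodendrocyte-like cells (4342 CPM in E4 and 4405 CPM in E3) and -0.03 in neuroprogenitor-like cells (1505 and 1536 CPM), while it was 0.05 in astrocyte-like, 0.06 in endothelial-like and 0.13 in choroid plexus-like cells. Of the 8 genes in oligodendrocyte-like cells 5 kept their direction and Ctsh (-0.09), Ctss (-0.11) and Man2b1 (-0.07) did not, and of the 6 in neuroprogenitor-like cells 4 did and Lgmn (-1.11) and Lipa (-0.64) did not. The ratios of the sum were also smaller with called doublets left out, at 0.03 in oligodendrocyte-like cells (7 genes higher and 1 lower) and 0.08 in neuroprogenitor-like cells (3 higher and 1 lower), and with cells thinned to 1000 UMIs, at 0.10 and 0.05.

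A few genes leaned 1 way in all classes. Of the 31 genes compared in all 6 classes, 10 had a log2 ratio above 0 in each (12.6% of all genes) and 1, the palmitoyl thioesterase Ppt1, below 0 in each (6.18%). For 3 genes, Asah1, Ctsd and Lgmn, the interval was above 0 in all 6 classes (0.624% of all genes). Without cells holding a microglia marker 1 gene, Ctsd, was above 0 in each class, while Asah1 was at -0.04 in oligodendrocyte-like and Lgmn at -1.11 in neuroprogenitor-like cells. With called doublets left out 5 genes were above 0 in each class, Asah1, Ctsd and Lgmn among them, and with thinned cells 8 were, again with these 3, but no gene had an interval above 0 in all 6 under any of these alternatives. Ppt1 was below 0 in each class under the first and the second of them, and with thinned cells above 0 in 3 classes. For Asah1 the ratio was lowest in astrocyte-like cells, at 161 CPM in E4 and 136 CPM in E3 (0.24, 0.15–0.33), and highest in neuroprogenitor-like cells (0.86, 0.37–1.36), with microglia-like cells at 338 and 285 CPM (0.25, 0.18–0.31). For Ctsd it ran between 0.12 in microglia-like and 0.56 in oligodendrocyte-like cells, and for Lgmn between 0.12 in microglia-like and 0.51 in neuroprogenitor-like cells. For Ppt1 it ran between -0.25 in oligodendrocyte-like cells (99.7 CPM in E4 and 119 CPM in E3) and -0.04 in neuroprogenitor-like cells, with -0.13 in microglia-like cells (230 and 251 CPM). All 6 classes share the same pair of pools, so they are not independent measurements of the genotype.

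Among the 91 further lysosomal genes the share past the threshold was likewise low in microglia-like cells. There 4 of 82 were higher in E4, the calcium channel Tpcn2, Mitf, the cathepsin inhibitor Cst7 and Atp6v0e2, and 0 lower, with a median log2 ratio of 0.03. The counts were 3 higher and 2 lower of 82 in astrocyte-like cells (median 0.05), 14 and 0 of 80 in oligodendrocyte-like (0.03), 7 and 0 of 78 in endothelial-like (0.06), 11 and 1 of 76 in choroid plexus-like (0.13) and 9 and 6 of 58 in neuroprogenitor-like cells (-0.01). Over all genes the share higher was 8.15% in microglia-like, 7.13% in astrocyte-like and 15.9% in oligodendrocyte-like cells. It was 13.4% in endothelial-like, 12.5% in choroid plexus-like and 20.1% in neuroprogenitor-like cells. The share lower ran from 4.58% in endothelial-like to 10.0% in neuroprogenitor-like cells. The difference of the counts from these shares was not tested.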

How the data were processed

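The authors deposited raw UMI counts per gene and cell for 2 libraries of 10x Genomics 3′ single-cell RNA sequencing, made with Cell Ranger (6.1.1 for E4, 6.1.2 for E3) on mm10 per the file headers and the submitters' processing notes. The name of its annotation is not given in the sources used here. The study's filter (between 50 and 50000 UMIs, mitochondrial share up to 30%) was applied, and cells were scaled to 10000 UMIs and log-transformed. From 2000 variable genes, chosen without the 37 lysosomal genes, 20 principal components were clustered with the Leiden method (15 neighbours, resolution 1). A name needed at least 3 markers, each 2-fold higher than elsewhere and detected in 20% or more of the cluster, and a cluster was mixed where another class reached 75% of the best one. Shallow clusters without a leading marker stayed unnamed. These thresholds were set after clusters of these data had been seen. Not analysed were 681 (E4) and 413 (E3) unnamed cells, 162 and 109 mixed cells, and 1392 and 1472 cells of 2 astrocyte sub-clusters with 2 oligodendrocyte markers among their leading genes. Doublets were called (848 and 530 cells) for an alternative alone.

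Counts were summed per class and library and divided by the class total. Levels have exact Poisson intervals, and ratios exact intervals from the split of the counts (95%). Between genotypes, genes with at least 50 UMIs were compared at a log2 threshold of 0.32 in classes with at least 200 cells per library, and the highest class was taken among classes with at least 100. The scripts were tested on simulated data. Members, gene lists and rules were chosen with earlier results of these data known. Values are given for the 10 most abundant genes in microglia-like cells, genes highest in other classes, genes past that threshold with intervals clear of 0, and the 5 genes of largest ratio between macrophage-like and microglia-like cells in each direction or between microglial states. Others are summarised or were named after their values were seen. The alternatives were other cell filters, clusterings, totals, cell weights, depths, thresholds and count minimums. Tools were Python 3.11.15, scanpy 1.11.5, numpy 2.4.6, scipy 1.17.1, pandas 2.3.3, igraph 0.11.9, scikit-learn 1.9.0 and matplotlib 3.10.9.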

Additional observations from a re-analysis of the deposited data

Results flagged for a closer look

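For 4 genes the E4 to E3 ratio lay on opposite sides of equality in a pair of classes, with both counting intervals clear of it, and the difference between the classes was not tested. The log2 ratio of Ctsh was 0.63 in oligodendrocyte-like and -0.059 in microglia-like cells. For Ctss it was 0.57 in oligodendrocyte-like and -0.062 in microglia-like cells. By the ratio of the microglia markers neither gene is read as expressed in oligodendrocyte-like cells. For Ctsl the log2 ratio was 0.14 in oligodendrocyte-like and -0.11 in endothelial-like cells. For Cd63 it was 0.20 in endothelial-like and -0.044 in astrocyte-like cells. Without cells holding a microglia marker, in an alternative chosen after the data were seen, the ratio was -0.093 for Ctsh, -0.11 for Ctss and -0.20 for Ctsl in oligodendrocyte-like cells and -0.038 for Cd63 in endothelial-like cells. For Ctsh, Ctss and Cd63 both classes of the pair then lay on the same side. With called doublets left out it was 0.53, 0.52 and -0.36 for the first 3 and -0.062 for Cd63.

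Cells outside the 11 classes also held lysosomal transcripts. The lysosomal sum was 18471 CPM in E4 and 16697 CPM in E3 in unnamed cells, 3319 and 3365 CPM in mixed cells, and 5955 and 5544 CPM in astrocyte sub-clusters that were left out.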

How the results depend on the processing

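The microglial lead over the other 9 classes, the 25 genes at least 2-fold higher in microglia-like cells (22 to 27 under the alternatives) and the higher sum with disease-associated genes held their direction under every alternative run for them. Without Ctsd and Ctss the microglia-like and macrophage-like sums were close to equal, and with called doublets left out the immediate-early ratio changed direction. In oligodendrocyte-like and neuroprogenitor-like cells the E4 to E3 ratio changed direction without cells holding a microglia marker. It was also smaller with called doublets left out and, in neuroprogenitor-like cells, with thinned ones. The cause of these changes was not tested. Of the alternatives' values 495 were as reported within the set limits, 209 moved and 11 changed direction. Depth limits the low genes, such as Gla with 51 (E4) and 21 (E3) UMIs in microglia-like cells. No paired analysis was possible because each genotype has 1 library. The splits by disease-associated genes and their alternatives were chosen after the data were seen, and the cause of the values below was not tested.

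With the stricter cell filter (at least 1000 UMIs, 500 genes and at most 15% mitochondrial), the microglia-like over macrophage-like ratio was 1.37 (E4) and 1.38 (E3), the microglia-like over other 9 classes ratio was 5.84 (E3), the immediate-early ratio was 0.928 (E4) and 0.932 (E3), the disease-associated ratio was 1.36 (E4), the E4 to E3 log2 ratio was 0.057 in microglia-like, 0.024 in astrocyte-like and 0.14 in choroid plexus-like and the number of genes lower was 0 in endothelial-like and choroid plexus-like and 3 in neuroprogenitor-like. With called doublets left out, the microglia-like over macrophage-like ratio was 1.69 (E4) and 1.66 (E3), the microglia-like over other 9 classes ratio was 6.29 (E4) and 6.32 (E3), the immediate-early ratio was 1.14 (E4) and 1.11 (E3), the disease-associated ratio was 1.35 (E4), the E4 to E3 log2 ratio was 0.027 in oligodendrocyte-like, 0.045 in endothelial-like and 0.084 in neuroprogenitor-like, the number of genes higher was 1 in endothelial-like and 3 in neuroprogenitor-like and the number of genes lower was 0 in endothelial-like and 1 in oligodendrocyte-like and neuroprogenitor-like. With class totals taken over genes other than mitochondrial, haemoglobin and rRNA-overlapping ones, the microglia-like over macrophage-like ratio was 1.37 (E4) and 1.39 (E3), the microglia-like over other 9 classes ratio was 5.39 (E4) and 5.53 (E3) and the E4 to E3 log2 ratio was 0.030 in microglia-like, 0.025 in astrocyte-like and 0.074 in endothelial-like. As a mean over cells, the microglia-like over macrophage-like ratio was 1.46 (E4), the microglia-like over other 9 classes ratio was 6.60 (E4) and 7.10 (E3), the immediate-early ratio was 0.933 (E3), the disease-associated ratio was 1.33 (E3), the E4 to E3 log2 ratio was 0.022 in microglia-like, 0.057 in oligodendrocyte-like and 0.14 in neuroprogenitor-like, the number of genes higher was 1 in astrocyte-like and 4 in oligodendrocyte-like and the number of genes lower was 2 in endothelial-like and 3 in neuroprogenitor-like. Without Ctsd and Ctss, the microglia-like over macrophage-like ratio was 0.973 (E4) and 0.990 (E3), the microglia-like over other 9 classes ratio was 3.77 (E4) and 3.80 (E3) and the E4 to E3 log2 ratio was 0.064 in microglia-like, 0.076 in oligodendrocyte-like and 0.17 in neuroprogenitor-like. At resolution 0.5, the microglia-like over other 9 classes ratio was 5.93 (E4) and 6.06 (E3), the E4 to E3 log2 ratio was 0.071 in endothelial-like, the number of genes higher was 2 in endothelial-like and the number of genes lower was 0 in endothelial-like and 2 in neuroprogenitor-like. At resolution 2, the microglia-like over other 9 classes ratio was 5.88 (E3), the E4 to E3 log2 ratio was 0.057 in microglia-like and 0.14 in neuroprogenitor-like and the number of genes lower was 0 in endothelial-like. With the 37 genes used for clustering, the number of genes lower was 0 in endothelial-like and 2 in neuroprogenitor-like. With cells thinned to 1000 UMIs, the microglia-like over other 9 classes ratio was 6.0 (E4) and 6.19 (E3), the immediate-early ratio was 0.941 (E3), the E4 to E3 log2 ratio was 0.037 in microglia-like, 0.098 in oligodendrocyte-like, 0.15 in choroid plexus-like and 0.047 in neuroprogenitor-like, the number of genes higher was 2 in astrocyte-like and neuroprogenitor-like and the number of genes lower was 1 in oligodendrocyte-like, 3 in neuroprogenitor-like and 6 in astrocyte-like. Without cells holding a microglia marker (chosen after the data were seen), the microglia-like over other 9 classes ratio was 6.70 (E4) and 6.75 (E3), the E4 to E3 log2 ratio was -0.021 in oligodendrocyte-like, 0.064 in endothelial-like, 0.13 in choroid plexus-like and -0.029 in neuroprogenitor-like, the number of genes higher was 1 in oligodendrocyte-like, 2 in neuroprogenitor-like and 3 in choroid plexus-like and the number of genes lower was 0 in choroid plexus-like, 1 in oligodendrocyte-like and 2 in endothelial-like and neuroprogenitor-like. Centred on the median of all genes, the E4 to E3 log2 ratio was 0.0037 in microglia-like, 0.070 in oligodendrocyte-like, 0.035 in endothelial-like, 0.071 in choroid plexus-like and 0.17 in neuroprogenitor-like, the number of genes higher was 3 in choroid plexus-like and the number of genes lower was 1 in neuroprogenitor-like. With at least 200 UMIs per gene, the number of genes higher was 0 in microglia-like, 2 in endothelial-like and 3 in neuroprogenitor-like and the number of genes lower was 0 in endothelial-like and choroid plexus-like. At a threshold of 1.5-fold, the number of genes higher was 0 in endothelial-like, 1 in choroid plexus-like, 2 in oligodendrocyte-like and 3 in neuroprogenitor-like and the number of genes lower was 0 in microglia-like, endothelial-like and choroid plexus-like. With no minimum of UMIs, the number of genes lower was 2 in neuroprogenitor-like. Without Csf1, the disease-associated ratio was 1.59 (E4) and 1.5 (E3). In cells of 4000 to 8000 UMIs, the disease-associated ratio was 1.35 (E4) and 1.53 (E3). Without cells holding a microglia marker the log2 ratio also turned for Ctsh (-0.093), Ctss (-0.11) and Man2b1 (-0.066) in oligodendrocyte-like and for Lgmn (-1.11) and Lipa (-0.64) in neuroprogenitor-like cells.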
